A study of Mus musculus with 12 samples.

Results

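The genes described here are 10 components of cohesin and its closest chromosomal partners: the ring subunits Smc1a, Smc3 and Rad21, the alternative subunits Stag1 and Stag2, the loader Nipbl, the regulators Pds5a and Pds5b, the deacetylase Hdac8 and the boundary protein Ctcf. They were taken by symbol from a table of raw RNA sequencing counts with 23337 gene symbols, and all 10 were among the 12406 genes with enough counts to be tested. The table covered 12 libraries of NU1, a line of normal mouse urothelial cells that became immortal during serial passaging. Control cells carried the hairpin shNT and were labelled WT, and knockdown cells carried the lentiviral hairpin sh4 and were labelled Stag2-KD. Each hairpin was studied in proliferating cells and in quiescent cells, which gave 4 groups of 3 libraries, 1 from each of experiments 5, 7 and 9. Quiescent cells had been grown to confluence, then kept with 1 µM rosiglitazone, an activator of PPAR gamma, and 0.5 µM erlotinib, an inhibitor of the EGF receptor, and were labelled day 7. Confluence, both drugs and the day therefore came together in every quiescent library and cannot be told apart. The knockdown rested on 1 hairpin in 1 cell line.

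Cohesin is a protein ring. Smc1a and Smc3 form its arms, Rad21 closes it, and either Stag1 or Stag2 binds to Rad21, so that a cell holds a mixture of STAG1 and STAG2 complexes. Nipbl drives loading and the extrusion of chromatin loops, Pds5a and Pds5b bind the ring and help both its release and its protection, Hdac8 removes the acetyl marks of Smc3 so that cohesin can be used again, and Ctcf stops moving cohesin at boundaries. STAG2 is often lost by mutation in human bladder cancer, and STAG1 then becomes the remaining partner of the ring. In dividing cells cohesin also holds sister chromatids together from S phase to anaphase, a task that cells outside the cycle do not have.

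Library totals ran from 14524429 to 21987539 counts, and replicates differed far more than sampling noise would give, with a chi-square of 36.6 to 99.7 per degree of freedom over 12 pairs of replicates. The labels give separate experiment numbers but do not say that the cultures were started separately, so p-values measure the spread between these libraries. Of 18 urothelial and epithelial markers, 8 were above 10 CPM (counts divided by TMM-scaled totals and brought to a common depth) in every library, among them the keratins Krt7, Krt8, Krt18 and Krt19 and the epithelial genes Epcam and Cdh1. The basal regulator Trp63 had a count of 0 in every library, the basal keratin Krt5 ran from 0.414 to 6.60 CPM, and the uroplakin Upk3a, a marker of umbrella cells, reached at most 0.0453 CPM. The other uroplakins on the list were detected at low levels, with a highest library of 3.94 CPM for Upk1a, 2.23 for Upk1b, 1.45 for Upk2 and 8.91 for Upk3b. Markers of fibroblasts summed to 0.345 to 2.27 CPM, of smooth muscle to 0.173 to 0.716, of endothelium to 0 to 0.239 and of immune cells to 1.67 to 9.42. The immune sum was nearly all Cd68. The sum of 5 cycling markers (Mki67, Top2a, Ccnb1, Cdk1 and Mcm5) was 736 to 968 CPM in proliferating controls, 504 to 1105 in proliferating knockdown cells, 11.3 to 45.9 in quiescent controls and 34.2 to 121 in quiescent knockdown cells. The quiescent groups thus lay below both proliferating groups without overlap, and the part of cycling cells in the results below was not tested. In bulk RNA, fewer cells of a kind and less RNA per cell cannot be told apart.

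Promoter sequences, 250 bases before to 50 after the RefSeq transcription start, were given for 7 of the 10 genes in the RefSeq table for GRCm38.p6. These are shown because Smc1a, Smc3 and Stag1 fell together in quiescent controls and Pds5a did not pass the test, and because cell-cycle genes are commonly controlled through E2F sites, which the motifs TTTCCCGC and TTTGGCGC stand for. Capitals mark a match to one of those motifs or to CCAAT, on either strand.
Smc1a promoter, chrX:152016178-152016477, plus strand: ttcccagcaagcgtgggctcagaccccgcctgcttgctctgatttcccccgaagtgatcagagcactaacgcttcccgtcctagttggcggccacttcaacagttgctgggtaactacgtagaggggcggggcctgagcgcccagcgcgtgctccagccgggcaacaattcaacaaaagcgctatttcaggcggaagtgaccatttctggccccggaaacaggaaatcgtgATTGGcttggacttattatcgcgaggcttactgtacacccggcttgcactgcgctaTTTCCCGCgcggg
Stag1 promoter, chr9:100643198-100643497, plus strand: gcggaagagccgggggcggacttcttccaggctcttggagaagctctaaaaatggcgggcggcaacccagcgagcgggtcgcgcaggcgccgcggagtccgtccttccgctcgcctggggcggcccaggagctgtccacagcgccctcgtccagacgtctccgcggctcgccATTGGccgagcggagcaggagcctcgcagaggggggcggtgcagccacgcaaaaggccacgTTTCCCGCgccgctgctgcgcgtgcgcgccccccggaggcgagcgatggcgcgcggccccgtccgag
Pds5a promoter, chr5:65698187-65698486, minus strand: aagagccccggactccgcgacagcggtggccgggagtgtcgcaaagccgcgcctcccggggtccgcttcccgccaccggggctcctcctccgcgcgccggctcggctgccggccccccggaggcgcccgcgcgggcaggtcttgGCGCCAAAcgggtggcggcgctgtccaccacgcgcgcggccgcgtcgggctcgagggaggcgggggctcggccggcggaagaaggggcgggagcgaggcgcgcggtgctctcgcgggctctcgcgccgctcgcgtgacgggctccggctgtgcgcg
Smc3 promoter, chr19:53600146-53600445, plus strand: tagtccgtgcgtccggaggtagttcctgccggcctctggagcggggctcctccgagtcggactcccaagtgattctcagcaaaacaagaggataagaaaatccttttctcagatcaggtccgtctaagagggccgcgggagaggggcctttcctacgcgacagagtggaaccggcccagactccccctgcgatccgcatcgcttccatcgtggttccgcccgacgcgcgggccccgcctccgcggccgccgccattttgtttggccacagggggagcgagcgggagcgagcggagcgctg

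An E2F motif was found in 3 of the 7 promoters, and 1.565% of 32851 promoters of the same length held one. Its matches were TTTCCCGC on the strand of the gene in Smc1a, at bases 37 to 44 after the start, and in Stag1, at bases -17 to -10. In Pds5a TTTGGCGC was on the strand opposite to the gene, at bases -106 to -99, where the printed sequence shows its reverse complement. Smc3, which fell with Smc1a and Stag1, held none of these letters in its window, and Pds5a, which held one, passed no test. No promoter was given for Rad21, which also fell, or for Stag2 and Nipbl. The part of these motifs in the changes was not tested. Only TTTCCCGC and TTTGGCGC were searched as E2F motifs, so other forms of the site were not counted. The 32851 promoters were not matched to these genes in base composition, so the share among them is no test of enrichment. CCAAT, read on either strand, was in 4 of the 7 promoters (Smc1a, Stag1, Hdac8 and Pds5b) and in 37.4% of all. The cell-cycle homology region motif TTTGAA, also on either strand, was in 3 (Ctcf, Hdac8 and Pds5b) and in 17.9% of all. The Stag1 start used by RefSeq lies inside the gene as annotated by GENCODE M21, chr9:100597798-100959375 in GRCm38, which also has transcripts from an earlier start.

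Stag2 (chrX:42149317-42277185, plus strand) was the target of the hairpin and was low in all 6 knockdown libraries. In experiments 5, 7 and 9 its level was 139, 145 and 113 CPM in proliferating controls and 33.3, 24.9 and 24.6 CPM in proliferating knockdown cells. In quiescent cells it was 128, 126 and 107 CPM in controls and 9.43, 15.3 and 11.7 CPM with the hairpin. No knockdown library came near a control, and within the knockdown every quiescent library lay below every proliferating one. The remaining level was 23.9%, 17.1% and 21.8% of the matched control in proliferating cells and 7.38%, 12.1% and 10.9% in quiescent cells. The log2 fold change of the knockdown was -2.26 (adjusted p = 0.00121 by edgeR, SE 0.19) in proliferating cells, a 4.80-fold decrease, and -3.32 (adjusted p = 3.39e-05 by edgeR, SE 0.20) in quiescent cells, a 9.96-fold decrease. Both calls held in each of the 12 fits that left out 1 library. The knockdown effect of quiescent cells less that of proliferating cells was -1.05 on the log2 scale (adjusted p = 0.9997 by edgeR, SE 0.26), lower in all 3 experiments. Adjusted over all genes, a different depth of knockdown was not called, although 1 of the 10 genes, Stag2, had an unadjusted p under 0.05. Over all genes, edgeR called 0% in this interaction, with 219 genes under an unadjusted p of 0.05, and DESeq2 called 6 genes.

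Transcripts of the ring subunits were lower in quiescent than in proliferating control cells. Smc1a, Smc3, Rad21 and Stag1 fell, by 0.47 to 0.62 on the log2 scale, while Stag2, Nipbl, Pds5a, Pds5b, Hdac8 and Ctcf did not pass the test. That was 4 of 10 genes called, all of them lower, where 20.0% of all tested genes were called in either direction and 11.7% were called lower. The levels of 5 of the 10, the same 4 and Ctcf, did not overlap between quiescent and proliferating controls, against 35.6% of all genes.

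Smc3 (chr19:53600398-53645833, plus strand), the arm whose acetylation locks the ring on sister chromatids, stood at 119, 135 and 120.4 CPM in proliferating controls and at 81.6, 86.6 and 75.9 CPM in quiescent controls. Every quiescent library was lower, and the log2 fold change was -0.62 (adjusted p = 0.00436 by edgeR, SE 0.12), a decrease that passed the threshold in all 12 fits that left out 1 library. Rad21 (chr15:51962240-51991747, minus strand), the subunit that separase cuts at anaphase, went from 285, 329 and 325 CPM to 236, 205 and 218 CPM, again with no overlap. Its log2 fold change was -0.51 (adjusted p = 0.0160 by edgeR, SE 0.13). Smc1a (chrX:152016428-152062694, plus strand), the other arm, went from 148, 171 and 133 CPM to 108, 114 and 85.3 CPM, and its fold change was -0.56 (adjusted p = 0.0406 by edgeR, SE 0.17). Experiment 9 had the lowest Smc1a of every group, and within the 3 experiments the level fell by 0.46, 0.58 and 0.64 on the log2 scale. Stag1 (chr9:100597798-100959375, plus strand) went from 84.1, 85.7 and 64.8 CPM to 63.0, 58.4 and 48.1 CPM, with a fold change of -0.47 (adjusted p = 0.0362 by edgeR, SE 0.14). The proliferating library of experiment 9 was the lowest of its group and lay just above the highest quiescent one.

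3 of these 4 calls depended on single libraries in the fit of group means, which does not use the experiment. Smc1a missed the threshold in 7 of the 12 fits with 1 library left out, namely those without proliferating control 5 or 7, quiescent control 5, 7 or 9, proliferating knockdown 5 or quiescent knockdown 7, with an adjusted p of up to 0.149. Stag1 missed it without proliferating control 5 or 7 or quiescent control 7 or 9 (adjusted p up to 0.132), and Rad21 without proliferating control 7 or 9 or quiescent control 7 (adjusted p up to 0.0623). A fit to the 6 control libraries alone called Smc3 and Rad21 and not Smc1a or Stag1 (adjusted p = 0.0563 and 0.0948 by edgeR), where it called 13.2% of all genes. With all 12 libraries and the experiment as a block, all 4 genes were called, where that fit called 35.3% of all genes in either direction and 18.5% lower. Fits that left out a library were not run with the block.

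**Figure D1:**
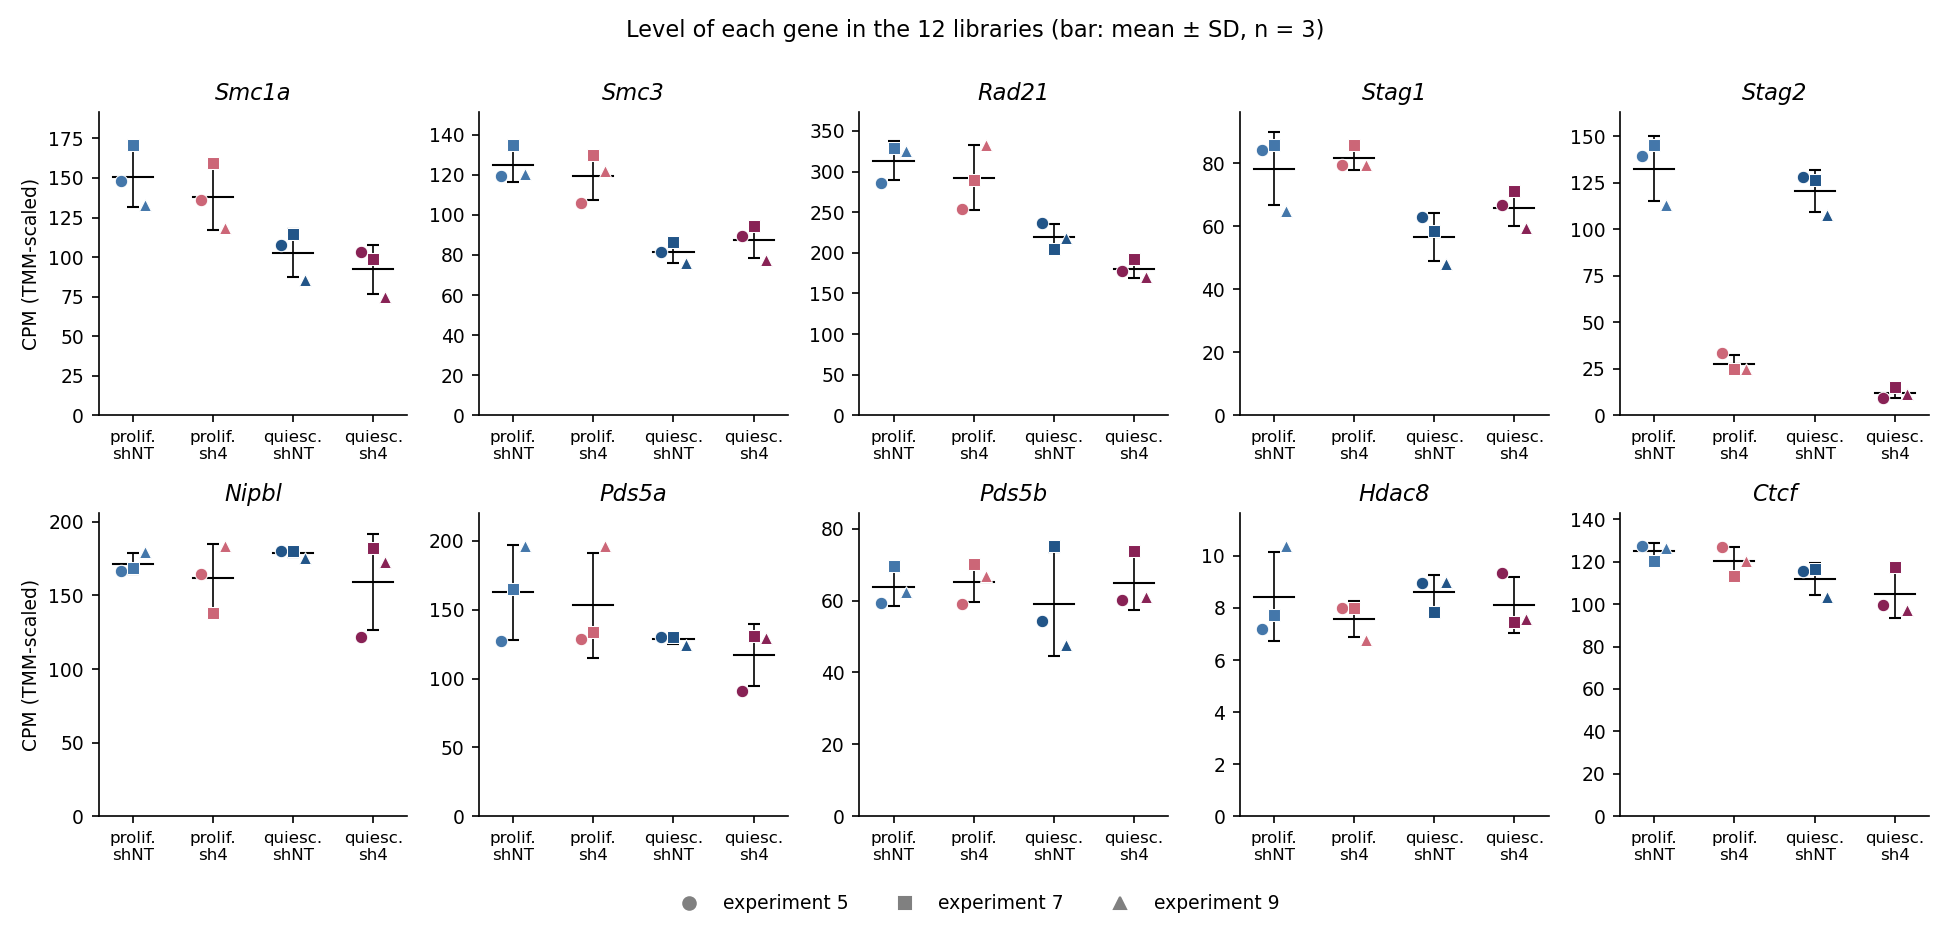
Level of each of the 10 genes in CPM with TMM-scaled totals, for proliferating and quiescent cells with the control hairpin (shNT) or the hairpin against Stag2 (sh4); each point is 1 library, its shape gives the experiment, and bars are the mean ± SD of 3. Smc1a, Smc3 and Rad21 were lower in the quiescent groups, Stag2 followed the hairpin, and Nipbl, Pds5b and Hdac8 overlapped across all groups.

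The 3 ring genes also fell with quiescence in knockdown cells. Rad21 fell from 253, 289.9 and 333 CPM to 178, 193 and 169.7 CPM, a log2 fold change of -0.70 (adjusted p = 0.00370 by edgeR, SE 0.13) that was called in all 12 fits with a library left out. Smc3 fell from 106, 129.7 and 122 CPM to 89.6, 94.6 and 77.5 CPM, a change of -0.45 (adjusted p = 0.0223 by edgeR, SE 0.12). Smc1a fell from 136, 159 and 118 CPM to 103, 98.9 and 74.6 CPM, a change of -0.58 (adjusted p = 0.0370 by edgeR, SE 0.17). In all 3 genes each quiescent knockdown library lay below each proliferating one. The targeted gene itself was the other one called, with Stag2 at -1.19 (adjusted p = 0.00208 by edgeR, SE 0.19).

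With the knockdown 4 of 10 genes were thus called lower with quiescence, where 18.4% of all genes were called in either direction and 10.8% were called lower, and 3 of the 4 were also called in the controls. The levels of 5 did not overlap between the states, against 37.2% of all genes. Stag1 was the fifth: it went from 79.3, 85.8 and 79.4 CPM to 66.7, 71.1 and 59.5 CPM, a log2 fold change of -0.31 (adjusted p = 0.144 by edgeR, SE 0.14). With the experiment as a replicate block in the model, Stag1 passed the threshold (edgeR adjusted p = 0.0332), and 5 of the 10 genes were called, where this fit called 33.0% of all genes in either direction and 17.2% lower. The calls of Smc1a were lost without proliferating knockdown 5 or 7, quiescent control 5 or quiescent knockdown 5, 7 or 9, and those of Smc3 without proliferating knockdown 7 or 9 or quiescent knockdown 5 or 9. Both were also lost in a fit to the 6 knockdown libraries alone (adjusted p = 0.0571 and 0.0639 by edgeR), which called 15.9% of all genes. The test of the difference between the responses of control and knockdown cells called none of the ring genes: the interaction was -0.02 for Smc1a (SE 0.24), 0.17 for Smc3 (SE 0.17) and -0.19 for Rad21 (SE 0.18), each with an edgeR adjusted p of 0.9997.

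**Figure D2:**
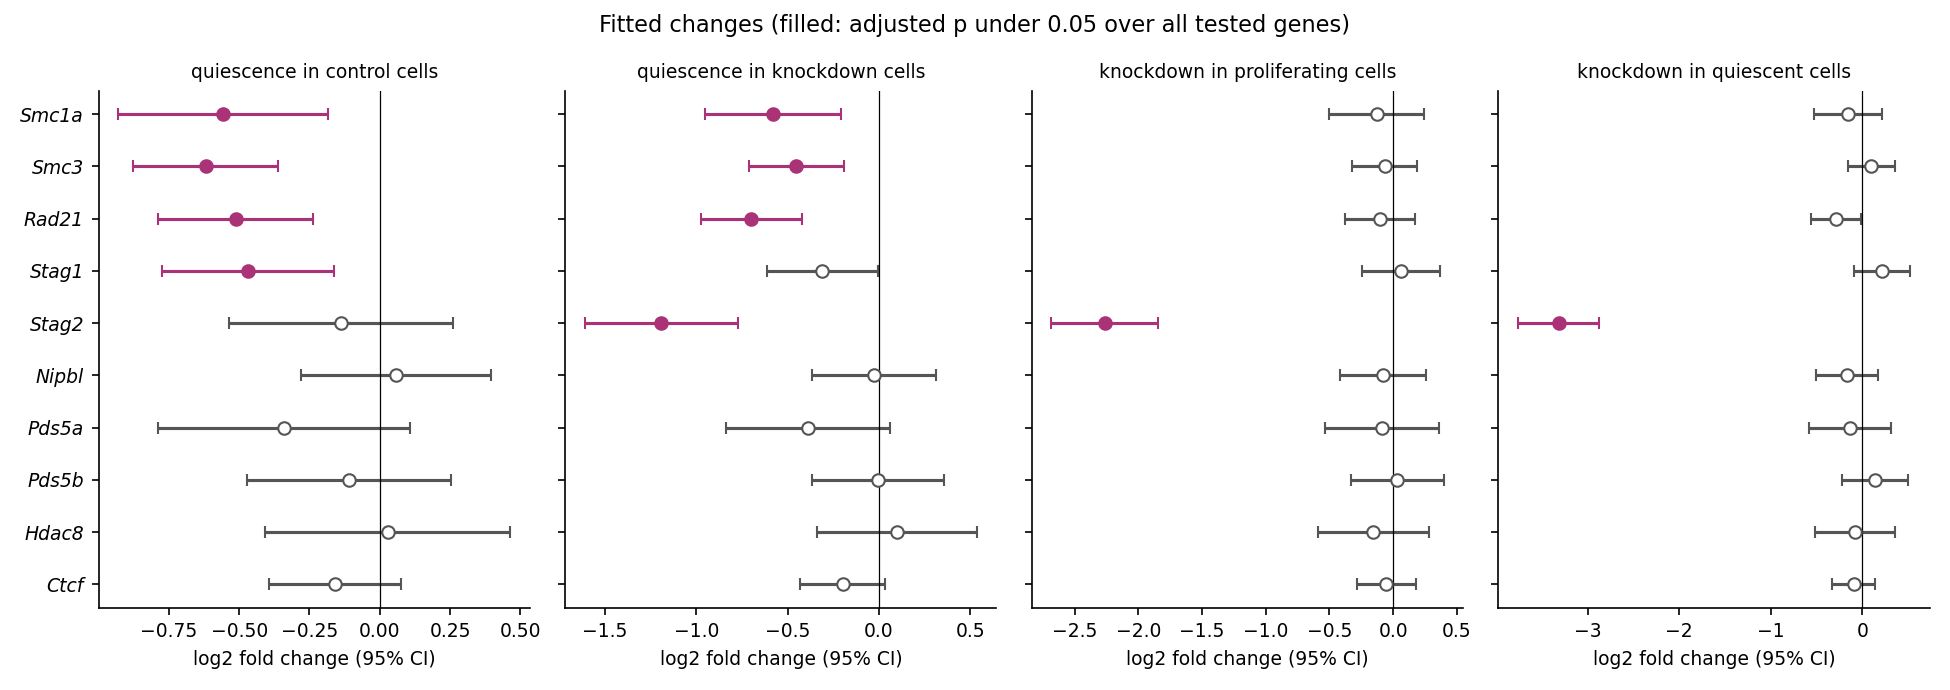
Fitted log2 fold change of each gene with its 95% confidence interval, in 4 panels: the change with quiescence in control and in knockdown cells, and the change with the knockdown in proliferating and in quiescent cells; the panels have different horizontal scales, and filled points had an edgeR adjusted p under 0.05 over all tested genes. The 3 ring genes were called with quiescence in both kinds of cell, and Stag2 was the one gene called with the knockdown in both states.

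Apart from Stag2, none of the genes was called after the knockdown in either state. In proliferating cells 1 of 10 was called against 0.0242% of all genes, and the other 9 lay between -0.15 and 0.06 on the log2 scale, each with an edgeR adjusted p of 0.9998. Stag2 was also the one whose control and knockdown libraries did not overlap there, against 5.31% of all genes. In quiescent cells 1 of 10 was called against 0.435% of all genes, and averaged over both states 1 of 10 against 0.556%. The control and knockdown levels of 2 genes, Stag2 and Rad21, did not overlap in quiescent cells, against 19.1% of all genes.

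Stag1, the gene whose product can take the place of Stag2 in the ring, did not pass the test. Its knockdown change was 0.06 on the log2 scale in proliferating cells, with a 95% confidence interval from 15.5% lower to 28.7% higher. In quiescent cells it was 0.22 (adjusted p = 0.601 by edgeR, SE 0.14), higher in 3 of 3 experiments, with an interval from 5.80% lower to 43.8% higher. Averaged over both states it was 0.14 (adjusted p = 0.632 by edgeR, SE 0.10), with an interval from 5.12% lower to 27.9% higher. With the experiment as a block the change in quiescent cells was 0.22 (SE 0.10, edgeR adjusted p = 0.244). Its 95% confidence interval then ran from 0.00059 to 0.444 on the log2 scale, just above 0. On this scale none of these intervals reaches the size of the loss of Stag2, and each allows a smaller rise of Stag1. Rad21 went in quiescent cells from 236, 205 and 218 CPM to 178, 193 and 169.7 CPM with the hairpin. The log2 fold change was -0.29 (SE 0.13, 95% confidence interval -0.56 to -0.01, edgeR adjusted p = 0.393), lower in 3 of 3 experiments and short of the threshold over all genes. In proliferating cells Rad21 was 285, 329 and 325 CPM in controls and 253, 289.9 and 333 CPM with the hairpin, which overlapped. Smc1a and Smc3 moved by -0.15 and 0.10 with the knockdown in quiescent cells (edgeR adjusted p = 0.803 and 0.810). Smc1a was lower and Smc3 higher in 3 of 3 experiments. Their 95% confidence intervals, -0.525 to 0.221 and -0.157 to 0.358, included 0, so by these intervals neither a shared nor an opposite direction of the ring genes was shown.

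The balance of both STAG transcripts turned over with the hairpin. Per kilobase of exon, Stag1 was 29.8%, 29.3% and 28.8% of the sum of Stag1 and Stag2 in proliferating controls of experiments 5, 7 and 9, and 62.6%, 70.8% and 69.4% with the hairpin. In quiescent cells its share was 25.7%, 24.5% and 23.9% in controls and 83.2%, 76.6% and 78.2% with the hairpin. Control libraries stayed within a narrow range, and each knockdown library lay far above it. The share rose by 46.5 percentage points ± 9.60 (SD, n = 6 differences within an experiment and state, from 3 experiments). It rose by 38.3 points ± 4.80 (SD, n = 3) in proliferating and 54.6 points ± 2.75 (SD, n = 3) in quiescent cells. The direction follows from the fall of Stag2, the target of the hairpin, so these values describe the size of the shift and carry no test of their own. Divided by coding length instead, the share in the same groups was higher, at 37.3% and 74.9% in proliferating and 32.0% and 84.6% in quiescent cells, since the annotated exons of Stag1 are much longer than those of Stag2. In controls the share was lower in quiescence by 4.55 points ± 0.428 (SD, n = 3), in 3 of 3 experiments (exact permutation test p = 0.25, the smallest possible).

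The sum of both STAG transcripts against the ring restates the knockdown in another form, since Stag2 made up most of it in controls. The sum of Stag1 and Stag2 per kilobase of exon was 0.627, 0.566 and 0.472 of the mean of Smc1a, Smc3 and Rad21 in proliferating controls, and 0.315, 0.258 and 0.240 with the hairpin. In quiescent cells the ratio was 0.699, 0.723 and 0.640 in controls and 0.268, 0.296 and 0.289 with the hairpin. Within experiments the knockdown changed it by -1.15 on the log2 scale ± 0.160 (SD, n = 6). Per kilobase of coding sequence the mean ratio went from 0.698 to 0.391 in proliferating and from 0.846 to 0.431 in quiescent cells, a change of -0.90 on the log2 scale. In controls the ratio was 0.32 higher on the log2 scale in quiescence ± 0.146 (SD, n = 3; exact permutation test p = 0.25, the smallest possible), higher in 3 of 3 experiments. That difference came with a fall of the ring level from 40.9 to 28.1 CPM per kilobase of exon, while the sum of Stag1 and Stag2 went from 22.7 to 19.4. Stag2 alone went from 0.392 to 0.517 of the ring level and Stag1 alone from 0.163 to 0.170. In quiescent knockdown cells Stag1 stood at 0.223, 0.227 and 0.226 of the ring level, above all 9 other libraries, and Stag2 at 0.0449, 0.0694 and 0.0631. The ring level rests mostly on Rad21, which was 2.71 times Smc3 in these libraries and 3.55 times Smc3 in quiescent controls. Against Smc3 alone Stag1 in these libraries did not stand above all 9 others. In quiescent knockdown 5 Stag1 had 5.66 and Smc3 16.2 CPM per kilobase of exon, and in quiescent control 5 they had 5.35 and 14.7. In experiment 7 they had 6.03 and 17.1 with the hairpin and 4.96 and 15.6 in the quiescent control. Those of experiment 9 were 5.05 and 14.0 with the hairpin and 4.09 and 13.7 in the quiescent control. Relative to Smc3, Stag1 was thus higher with the hairpin in experiments 7 and 9 and lower in experiment 5.

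**Figure D3:**
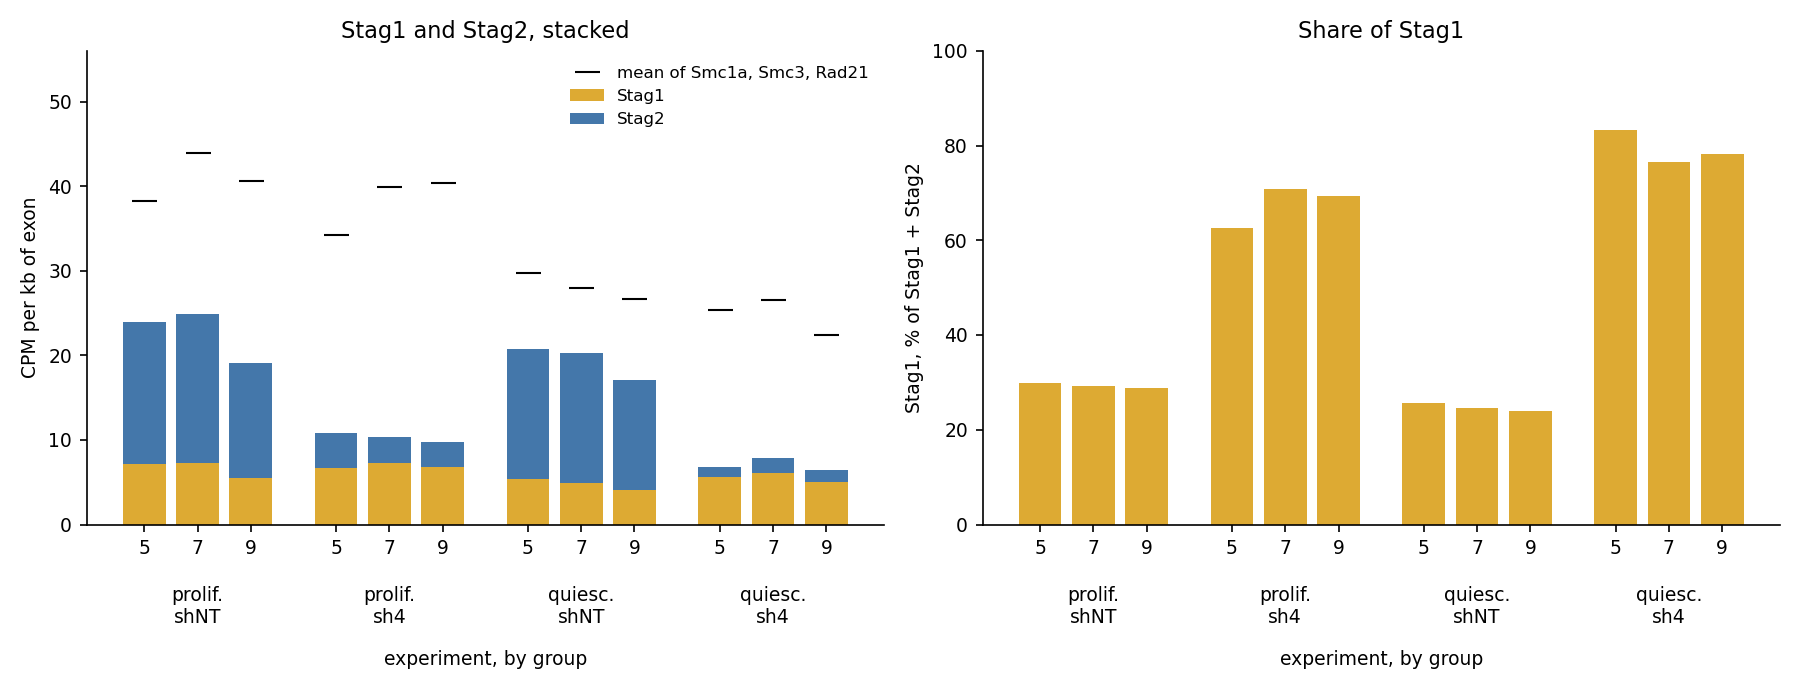
Left, Stag1 and Stag2 stacked in CPM per kilobase of exon for each library, with a dash at the mean of Smc1a, Smc3 and Rad21 in that library; right, Stag1 as a percentage of Stag1 plus Stag2. Bars are single libraries, grouped by state and hairpin and labelled by experiment. The Stag1 share was 23.9% to 29.8% in the 6 control libraries and 62.6% to 83.2% in the 6 knockdown libraries.

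The loader, the regulators, the deacetylase and Ctcf passed no test. Nipbl (chr15:8290617-8444463, minus strand) was 166, 169 and 179.7 CPM in proliferating controls and 180.3, 180.3 and 176 CPM in quiescent controls, a log2 fold change of 0.06 (adjusted p = 0.824 by edgeR, SE 0.15). With the hairpin it was 165, 138 and 184 CPM in proliferating and 122, 182 and 173 CPM in quiescent cells. The quiescent knockdown library of experiment 5, the deepest of all, stood apart with the lowest Nipbl level.

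Pds5a (chr5:65605721-65698273, minus strand) was 127, 165 and 196 CPM in proliferating controls, 130.4, 130.4 and 125 CPM in quiescent controls, 129, 134 and 197 CPM in proliferating knockdown cells and 91.3, 131 and 129 CPM in quiescent knockdown cells. It was spread out in proliferating cells, where experiment 9 was highest with either hairpin. Its changes with quiescence were -0.34 in controls and -0.39 in knockdown cells (SE 0.20 and 0.21, edgeR adjusted p = 0.263 and 0.214). Pds5b (chr5:150673739-150810690, plus strand) ranged from 47.6 to 75.3 CPM over all libraries, both of them quiescent controls. Its changes with quiescence were -0.11 in controls and -0.01 with the knockdown (SE 0.17 for both, edgeR adjusted p = 0.676 and 0.984). In every group the library of experiment 7 had the highest Pds5b level.

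Hdac8 (chrX:102284639-102505359, minus strand) had the fewest reads of the 10 genes in controls, with 7.18, 7.73 and 10.4 CPM in proliferating and 8.97, 7.83 and 9.00 CPM in quiescent controls. The knockdown libraries ran from 6.77 to 9.34 CPM, inside or just under the control range. Its change with quiescence in controls was 0.03 with a 95% confidence interval of -0.41 to 0.46, so a moderate change either way was not detectable here. Ctcf (chr8:105636568-105682922, plus strand) was 128, 120.3 and 127 CPM in proliferating controls and 116, 117 and 103 CPM in quiescent controls. These groups did not overlap, but they lay close together: the log2 fold change was -0.16 (adjusted p = 0.315 by edgeR, SE 0.11). With the hairpin Ctcf went from 127, 113 and 121 CPM to 99.4, 118 and 97.3 CPM with quiescence, where experiment 7 was the exception and the groups overlapped (-0.20, SE 0.11, edgeR adjusted p = 0.218). Exons of Ctcf share 7.61% of their length with Gm5914 and 2.35% with Agrp on the other strand, and the strand setting used in counting is not given in the sources used here.

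Without Stag2, the median change with quiescence of the 9 other genes was -0.34 in controls and -0.31 in knockdown cells, where the median of all tested genes was 0.00 in both. With the knockdown it was -0.08 in proliferating and -0.09 in quiescent cells, beside -0.00 and 0.02 for all genes. Both quiescence comparisons and both knockdown comparisons draw on the same groups, so these medians are not independent of each other.

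The levels of different genes can be compared only per length. Per kilobase of exon in proliferating controls, Rad21 was the highest at 74.0 CPM ± 5.75 (SD, n = 3). Smc1a at 26.1 ± 3.31, Ctcf at 25.7 ± 0.814 and Smc3 at 22.6 ± 1.58 (CPM per kilobase, SD, n = 3) followed, and Smc1a overlapped with both others. Nipbl stood at 18.2 ± 0.758 and Stag2 at 16.0 ± 2.10 CPM per kilobase, without overlap, and Pds5a at 8.42, Stag1 at 6.64 and Pds5b at 6.48 CPM per kilobase overlapped among themselves. Hdac8 was last at 1.74 ± 0.356 CPM per kilobase. Rad21 was thus 3.29 times Smc3 ± 0.222 (SD, n = 3) in proliferating controls. The ratio was 3.55 ± 0.387 in quiescent controls, 3.21 ± 0.330 in proliferating knockdown cells and 2.71 ± 0.139 in quiescent knockdown cells (SD, n = 3). In quiescent knockdown cells Rad21 was still first, followed by Ctcf, and Stag2 went to the last place at 1.46 ± 0.356 CPM per kilobase, in overlap with Hdac8 at 1.68 ± 0.219. The order depends on the length used. Per kilobase of coding sequence Rad21 was still first in proliferating controls, at 164 CPM, but Pds5a, whose annotated exons span 19335 bases for a coding sequence of 3996, took the fourth place at 40.7 CPM.

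The genes also differed in what their variation followed. The state accounted for 85.3% of the sum of squares of log2 CPM over the 12 libraries in Smc3, 79.3% in Rad21, 68.6% in Smc1a, 59.8% in Stag1 and 49.6% in Ctcf, and for 29.8% in the median gene. The hairpin accounted for 89.9% in Stag2 and for at most 16.3%, in Nipbl, among the other 9, with a median gene of 4.76%. Pds5b followed the experiment with 60.6%, against 21.5% in the median gene, and Pds5a was divided between the state at 35.9% and the experiment at 34.7%. In Nipbl and Hdac8 the largest part, 62.8% and 75.7%, fell to none of these. These shares describe the 12 libraries and carry no test.

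**Figure D4:**
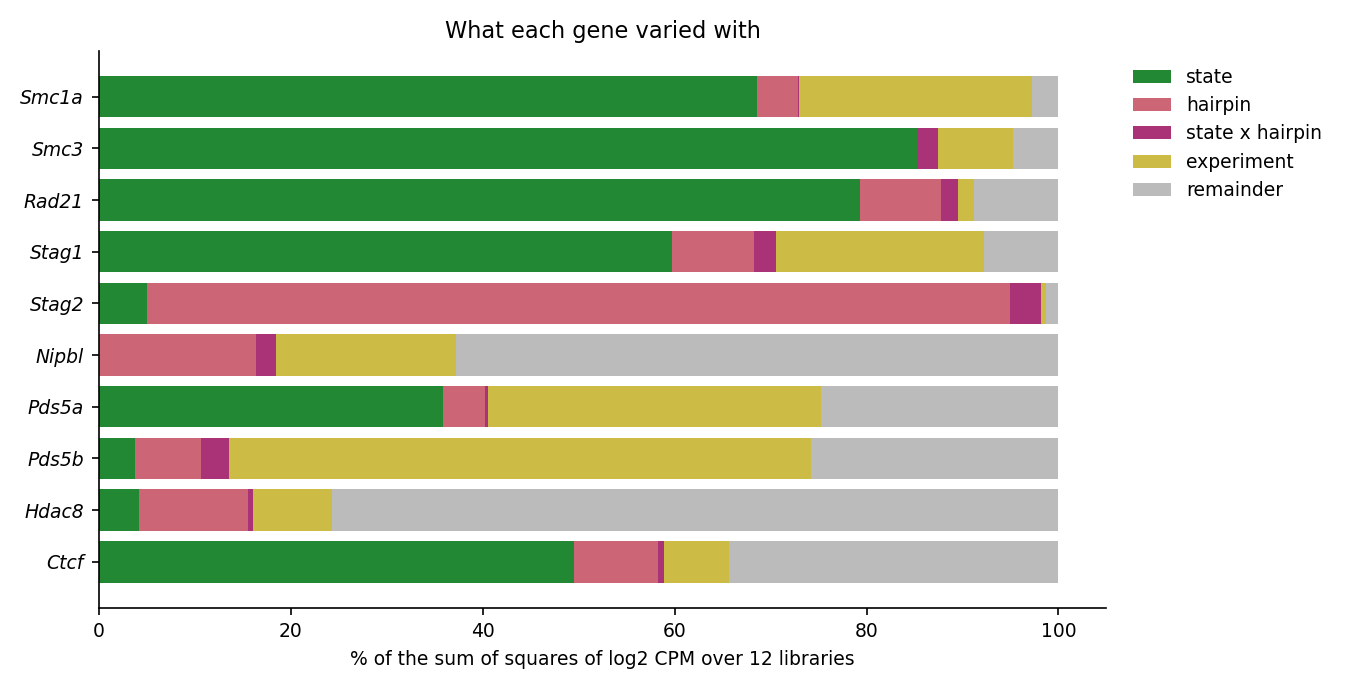
Percentage of each gene's sum of squares of log2 CPM over 12 libraries that went with the state, the hairpin, their interaction, the experiment and the remainder, as stacked horizontal bars. The state took the largest part in Smc1a, Smc3, Rad21, Stag1, Ctcf and, by a small margin, Pds5a, the hairpin in Stag2, the experiment in Pds5b and the remainder in Nipbl and Hdac8.

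Some other genes had patterns very like these. By the root-mean-square difference in log2 CPM, centred on each gene's own mean over the 12 libraries, Smc3 and Stag1 were the closest pair among the 10 genes at 0.147, followed by Smc1a and Smc3 at 0.156. The 5 genes nearest the mean of Smc1a, Smc3 and Rad21 were Tardbp at 0.0357, Sfpq at 0.0554, Eri1 at 0.0587, Syncrip at 0.0655 and Srsf10 at 0.0656, where the median of 10298 genes was 0.404. Tardbp, an RNA-binding protein, went from 251 CPM ± 25.8 in proliferating to 169 CPM ± 13.6 (SD, n = 3) in quiescent controls, and from 237 ± 29.2 to 160.2 ± 18.3 with the hairpin. For Stag2 no gene came as near: its 5 nearest were Csgalnact2 at 0.721, Ctnna1 at 0.749, Fam163a at 0.792, Mmd at 0.802 and Mdfi at 0.857, with a median of 1.50 over 10300 genes. This distance grows with a gene's own spread. The SD of log2 CPM over the 12 libraries was 1.54 for Stag2 and 0.302 to 0.360 for the 3 ring genes. The ring mean also averages 3 genes, so its distances are not on the same footing as those of single genes. Ctnna1, the alpha catenin of adherens junctions, was 1453 CPM ± 241 in proliferating controls, 719 ± 201 in proliferating knockdown cells, 1502 ± 228 in quiescent controls and 443 ± 47.2 (SD, n = 3) in quiescent knockdown cells.

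The wider set held 36 cohesin partners, with genes for loading, release, protection, cleavage, acetylation and replication forks, meiotic subunits, boundary factors and genes of Cornelia de Lange syndrome. Of these, 32 were tested; the meiotic subunits Rec8 and Rad21l had a count of 0 in every library, and Stag3 and Smc1b were at or below 0.690 CPM. With quiescence in controls 16 of the 32 were called, 15 lower and 1 higher, where 20.0% of all genes were called and 11.7% called lower. The 6 with the largest fitted decreases were Aurkb, Dscc1, Esco2, Espl1, Plk1 and Sgol1 (edgeR adjusted p from 2.99e-05 to 0.00236). Their summed counts in the 3 quiescent controls were 122, 5, 19, 64, 87 and 35 in that order, and the lowest library had 10, 1, 0, 4, 4 and 5. At such counts the fitted values and their order depend on the prior count, so ratios of the summed counts are given instead, with 95% intervals that cover counting error only. By these, proliferating controls were 20.3 times the quiescent ones for Aurkb (16.9 to 24.5), 29.5 times for Plk1 (23.8 to 37.0), 28.2 times for Sgol1 (20.1 to 40.7) and 24.3 times for Espl1 (18.9 to 31.7). For Esco2 the ratio was 23.2 (14.7 to 38.8) and for Dscc1 42.8 (18.1 to 133), intervals too wide to set the genes in an order. Dscc1 is a subunit of the alternative clamp loader that aids cohesion, Plk1 and Aurkb are mitotic kinases, Sgol1 protects centromeric cohesin, Espl1 is separase and Esco2 acetylates Smc3 during S phase. The other 9 that fell, named after their values were seen, were Cdca5 (sororin), Sgol2, Gsg2 (haspin), Chtf18, Chtf8, Ddx11, Wdhd1, Timeless and Tipin. The 1 that rose was Pttg1, the securin that holds separase inactive, at 0.63 (adjusted p = 0.0121 by edgeR, SE 0.15). It was also named after its values were seen, and went from 17.1, 14.2 and 16.0 CPM to 22.5, 22.8 and 27.8 CPM.

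In knockdown cells the same 15 partners were called lower with quiescence, and Pttg1 was not called (0.24, SE 0.14, edgeR adjusted p = 0.272). There Pttg1 went from 18.8, 19.2 and 22.3 CPM to 26.3, 21.5 and 23.4 CPM. Its proliferating knockdown libraries all lay above the proliferating controls, where 5.31% of all genes did not overlap in either direction. That knockdown change was 0.35 (SE 0.15, edgeR adjusted p = 0.9998) and was not called. With the replicate block the phosphatase subunit Ppp2r5c was called lower as well (edgeR adjusted p = 0.0325, and 0.0751 without the block), so that 16 partners were called lower, where 17.2% of all genes were. Ppp2r5c is named because the block changed its call, after its values were seen. These cells shared the fall of the cycling markers given above, and the part of the cycle in the partners' changes was not tested. The release factor, the loader's partner, the phosphatases, the boundary factors and the Cornelia de Lange genes gave no call with quiescence in controls.

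**Figure D5:**
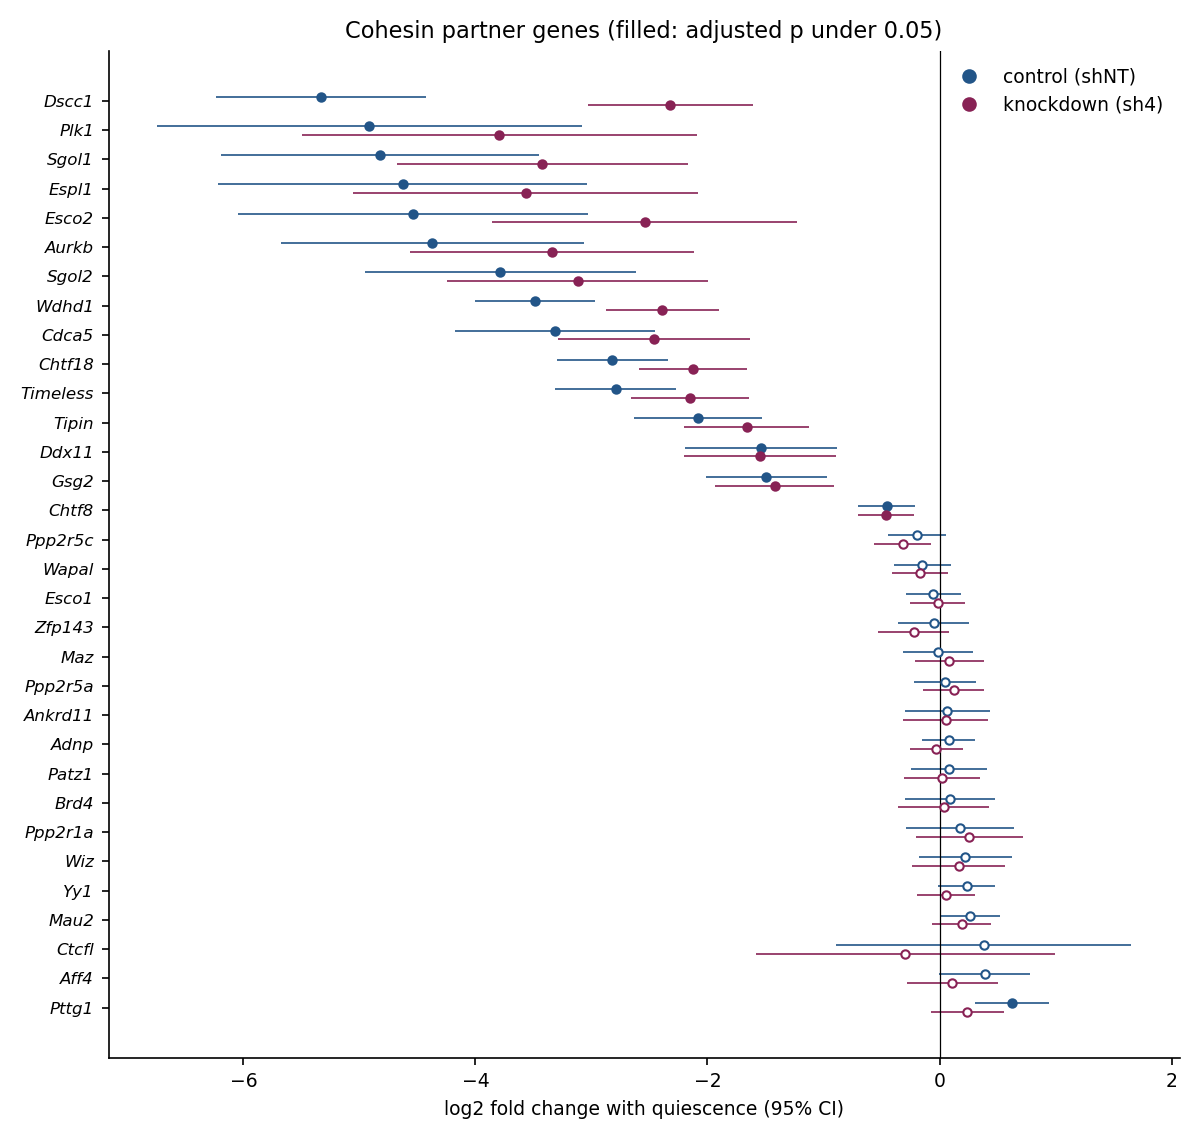
Log2 fold change with quiescence and its 95% confidence interval for the 32 tested partner genes, in control cells (shNT, blue) and knockdown cells (sh4, purple); filled points had an edgeR adjusted p under 0.05 over all tested genes. Genes are ordered by the change in controls, and 15 were called lower in both kinds of cell.

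After the knockdown, 1 of the 32 partners was called in quiescent cells, where 0.435% of all genes were called, and 0 in proliferating cells, where 0.0242% were. Dscc1 had 1, 1 and 3 counts (0.0690, 0.0612 and 0.179 CPM) in quiescent controls and 20, 15 and 14 counts (0.907, 0.895 and 0.820 CPM) in quiescent knockdown cells, with no overlap. In proliferating cells it had 4.66, 4.56 and 4.26 CPM in controls and 3.32, 5.18 and 4.71 CPM with the hairpin, which overlapped. The quiescent ratio from the summed counts was 8.35 (95% interval 3.34 to 26.8, which covers counting error only), and the edgeR adjusted p was 0.0139. With 5 counts in all the controls, the fitted log2 fold change depends on the prior count and is not given. The call was lost without quiescent control 5 or 7 or quiescent knockdown 5 or 9, with an adjusted p of up to 0.0857. Averaged over both states Dscc1 was called too (edgeR adjusted p = 0.0327), but in 3 of the 12 fits with a library left out. With the replicate block a further partner passed in quiescent cells, Wdhd1 (edgeR adjusted p = 0.0182, and 0.0939 without the block), which links DNA polymerase alpha to the replication fork. That made 2 of 32, where the block called 3.55% of all genes. It had 2.83, 3.00 and 1.97 CPM in quiescent controls and 3.99, 6.68 and 5.04 CPM with the hairpin, all above the controls. Esco2, not called by edgeR with or without the block, had 0, 0.489 and 0.656 CPM in quiescent controls. With the hairpin it had 0.861, 2.39 and 1.41 CPM. Its ratio from 83 and 19 summed counts was 3.72 (95% interval 2.24 to 6.49, counting error only). Esco2 is named here after its values were seen. The summed cycling markers were also higher in the quiescent knockdown libraries, at 34.2 to 121 CPM beside 11.3 to 45.9 CPM in the quiescent controls, which overlapped. The part of the cycling markers in these results was not tested.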

How the data were processed

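RNA was sequenced in 12 libraries of NU1 cells, in 4 groups of 3. The authors deposited raw counts per gene symbol in 1 table. Per the submitters' processing notes, Bowtie, TopHat, HTSeq and DESeq2 were used with mm10. Their versions, the annotation and the strand setting are not given in the sources used here. Per the labels' protocols the kit was stranded and ERCC spike-ins were added, but the table holds 0 ERCC rows, so scaling rested on the genes.

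Genes were kept by filterByExpr (minimum count 10), which left 12406 of 23337. After TMM scaling, a model of 4 group means over the 12 libraries was fitted with glmQLFit and tested with glmQLFTest in edgeR 4.0.16 (R 4.3.3). Calls used a Benjamini-Hochberg adjusted p under 0.05, adjusted across the 12406 genes. The fit was also run on simulated counts drawn without an effect of the experiment. Those counts cannot show how shared experiments affect the calls. Log2 CPM used a prior count of 2. Levels per kilobase used merged exons or the longest coding sequence of GENCODE M21 (GRCm38). Shares and ratios were compared between states in controls by exact two-sided sign-flip tests within experiments. The same test planned for the knockdown is not read, since its direction is fixed by the fall of the targeted gene. Library totals ran from 14524429 to 21987539. Standard errors and intervals of fold changes were computed from edgeR's log2 fold change and F statistic, and carry the spread between libraries. Intervals of ratios of summed counts cover counting error only and leave out the spread between libraries. PCR reads are also not independent molecules, which these intervals do not allow for.

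The pairing of libraries comes from the experiment number in the labels, which coincides with their batch. Deviations from the group means correlated between libraries of the same experiment (mean r 0.526 over 18 pairs, 0.225 to 0.789). The fit with this number as a block is an alternative.

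Named are all 10 genes, partners past the threshold in a knockdown comparison or the interaction, the 6 partners with the largest change with quiescence in controls, and the 5 nearest in pattern to Stag2 and to the ring mean, among genes whose mean log2 CPM was 2 or more. The genes, the partner and marker lists and the tests were chosen with earlier results of these data known. Alternatives were the block, other scalings and filters, DESeq2 1.42.0, fits to fewer libraries, other lengths, another prior count and leaving out each library or experiment.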

Additional observations from a re-analysis of the deposited data

How the results depend on the processing

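Of 832 alternative values of the 10 genes, 776 kept their direction and their side of the threshold, 28 lost a call, 1 gained one and 27, none of them called, changed sign. In knockdown cells the change of Pds5b with quiescence was 0.00277 with median-of-ratios size factors, 0.0451 with library totals only, 0.00267 with DESeq2 and 0.000542 in a fit to the libraries of that comparison alone, and that of Nipbl was 0.0210 with library totals only. Leaving out 1 library at a time gave ranges across 0. For the knockdown in proliferating cells these were -0.318 to 0.0675 for Pds5a, -0.0225 to 0.100 for Pds5b, -0.0596 to 0.130 for Stag1, -0.258 to 0.0223 for Hdac8, -0.133 to 0.00982 for Smc3 and -0.191 to 0.0206 for Nipbl, and in quiescent cells -0.218 to 0.0157 for Pds5a. For quiescence they were -0.315 to 0.0238 for Pds5b and -0.0766 to 0.204 for Hdac8 in controls, and -0.0979 to 0.0463 for Pds5b, -0.134 to 0.131 for Nipbl and -0.0161 to 0.167 for Hdac8 in knockdown cells. With the fit to the libraries of a comparison alone, which has fewer samples, 2 of the 10 genes (Smc3 and Rad21) were called for quiescence in controls and 2 (Rad21 and Stag2) in knockdown cells, where 13.2% and 15.9% of all genes were called. With 1 library left out these counts ran from 1 to 4 and from 2 to 4.

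Counts over all genes moved more. The replicate block gave 4374 genes for quiescence in controls, 4096 in knockdown cells, 440 for the knockdown in quiescent cells and 500 averaged over both states. It changed the call of Stag1 with quiescence in knockdown cells, as given above, and of no other of the 10 genes. DESeq2 gave 12 genes for the knockdown in proliferating cells, 387 in quiescent cells, 387 averaged and 6 in the interaction. The fit to fewer libraries gave 1 gene for the knockdown in proliferating cells and 1582 for quiescence in controls. With 1 library left out the counts ran from 1 to 3 and from 5 to 64 for the knockdown in proliferating and quiescent cells, from 12 to 96 averaged, and from 1394 to 3078 and 1186 to 2408 for quiescence in control and knockdown cells. Partners called after the knockdown in quiescent cells numbered 2 with the block, 3 with DESeq2, 0 with a mean count of at least 50, which removes Dscc1, 0 in the fit to fewer libraries and 0 to 1 with a library left out. Averaged over both states they numbered 0 with a mean count of at least 50 and 0 to 1 with a library left out. The cause of these differences was not tested.

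Without 1 experiment the share of Stag1 still rose by 45.97 to 47.1 points and the ratio of the STAG sum to the ring changed by -1.20 to -1.12. With the libraries of a state permuted without the pairing the smallest possible p is 0.1. Depth limits the partners with few counts in quiescent controls, Dscc1 and Esco2 among them.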
